A study of Bos taurus with 8 samples.

Results

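Mitosis, spindle checkpoint and condensin genes were examined in bovine granulosa cells exposed to follicle-stimulating hormone (FSH). The set was a fixed list of 44 genes, and every probe mapped to one of these symbols by the platform's annotation was taken. Of the 44 genes, 42 had a probe, none was listed for TTK and CENPA, and 41 had a probe bright enough to be tested, among 13591 named genes tested in all. The single probe of FOXM1, a transcription factor that drives mitotic genes, exceeded background in 1 of 8 FSH channels and 0 of 8 control channels and was left untested. The 41 genes are described by their brightest tested probe.

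Cells were taken from dissected ovarian follicles of 2 to 6 mm of slaughterhouse cattle, passed through a mesh and cultured for 48 h. FSH cultures received FSH at 1 ng/ml for the last 4 h, and control cultures received none. Each of 8 two-colour arrays held an FSH and a control sample, with 4 replicate numbers that each occurred once with FSH in Cy5 and once with FSH in Cy3. The protocol names 4 follicles for each of 8 biological replicates, and the series design names 4 control and 4 treated replicates. Neither the age nor the breed of the animals is stated. Nothing in the labels says that cultures with the same number shared an ovary.

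Mitosis divides the duplicated chromosomes between the daughter cells. Cyclin B with CDK1 starts it, condensin compacts the chromosomes, and kinetochores attach them to spindle microtubules. The spindle checkpoint holds the ubiquitin ligase APC/C in check until every kinetochore is attached. APC/C with CDC20 then triggers the separation of sister chromatids, and the central spindle guides cytokinesis. Granulosa cells multiply as the follicle grows, and FSH, which acts through cAMP, is known both for supporting that growth and for inducing the aromatase gene CYP19A1. Transcripts of many mitotic genes are highest late in the cell cycle, so their level in a culture can depend on the share of dividing cells. In bulk RNA, fewer dividing cells and less RNA per cell cannot be told apart.

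Between 71.4% and 84.2% of gene probes exceeded background in each channel. Of 10 granulosa markers, 10 could be tested and 8 were above background in every channel, among them the FSH receptor gene FSHR and the inhibin gene INHA. FOXL2 was above background in 5 of 8 FSH and 7 of 8 control channels, and AMHR2 in 7 of 8 and 8 of 8. Of 4 theca markers 4 could be tested, and 2 (INSL3 and STAR) were above background in every channel. Of 14 oocyte markers 9 could be tested, GDF9, ZP4, NLRP5 and ZAR1 could not, and KHDC3L was not on the array. Replicate 3 stood apart. NR4A1, an immediate-early gene of cAMP signalling, had log2 levels (normalised log2 intensity, mean of both dyes) of 14.47, 15.26, 15.02 and 15.12 in the FSH cultures of replicates 1 to 4, against 11.25, 10.89, 14.89 and 11.02 in the control cultures. The pseudokinase gene TRIB2 stood at 11.02, 10.74, 9.96 and 10.16 in the FSH cultures, against 12.82, 14.66, 10.03 and 13.07 in the control cultures. The replicate 3 library labelled control was thus near the FSH cultures for both genes, and its label is in doubt. CYP19A1 had a log2 ratio of 0.22 in replicate 3, against 0.56 to 1.36 in the other replicates. Its levels were 8.56, 9.70, 8.35 and 7.90 in the FSH cultures, against 7.57, 8.34, 8.13 and 7.34 in the control cultures. For CYP19A1 the replicate 3 control thus lay within the range of the other controls. Every replicate 3 ratio below sets the 2 libraries against each other as labelled, so whether it compares FSH with control is in doubt. Counts over 4 pairs or 8 arrays include replicate 3, and values with and without it are given.

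Most mitotic genes had slightly less signal in FSH than in control cultures, and no single gene passed the test over replicate means. The mean log2 ratio of FSH over control was below 0 for 33 of 41 genes (80.5%), against 51.9% of all named genes. Over the 4 replicate means, the median was -0.13 for the 41 genes and -0.00464 for all named genes. At an adjusted p of 0.05, limma called 0 of 36528 probes (0%) and 0 mitotic genes over the 4 replicate means, with a smallest adjusted p of 0.202. At an unadjusted p of 0.05, 4460 probes (12.2%) passed.

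By that unadjusted threshold 11 of 41 mitotic genes were lower with FSH (26.8%), against 8.09% of named genes, and 2 were higher (4.88%), against 7.93%. The 11 genes were BUB1, BUB1B, CENPE, CENPF, NUSAP1, KIF23, NCAPD2, CCNB2, CDC25B, CDC25C and CDC20, and the 2 higher ones were RACGAP1 and UBE2C. The count of lower genes was 6 without replicate 1 (against 6.51% of named genes), 4 without replicate 2 (4.86%), 15 without replicate 3 (11.2%) and 8 without replicate 4 (5.73%). In a limma fit of all 8 arrays with a replicate block and a dye term (the blocked fit), which called 1277 probes (3.5%), 3 mitotic genes fell with FSH at an adjusted p under 0.05: NCAPD2, BUB1 and CDC25B. That is 7.32% of the 41, against 2.48% of named genes lower, and 0 were higher, against 2.74% of named genes. Arrays of the same number were taken to hold the same pair of cultures, which the labels do not state. On that reading the blocked fit draws part of its precision from repeat hybridisations.

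The differences were small. CDC25B alone had an absolute mean log2 ratio over 0.5 (2.44% of the mitotic genes, against 5.67% of named genes), and 0 exceeded 1, against 0.92% of named genes. The ratio was below 0 in all 4 replicates for 11 of 41 genes (26.8%, against 11.6% of named genes) and above 0 in all 4 for 2 (4.88%, against 10.7%).

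**Figure D1:**
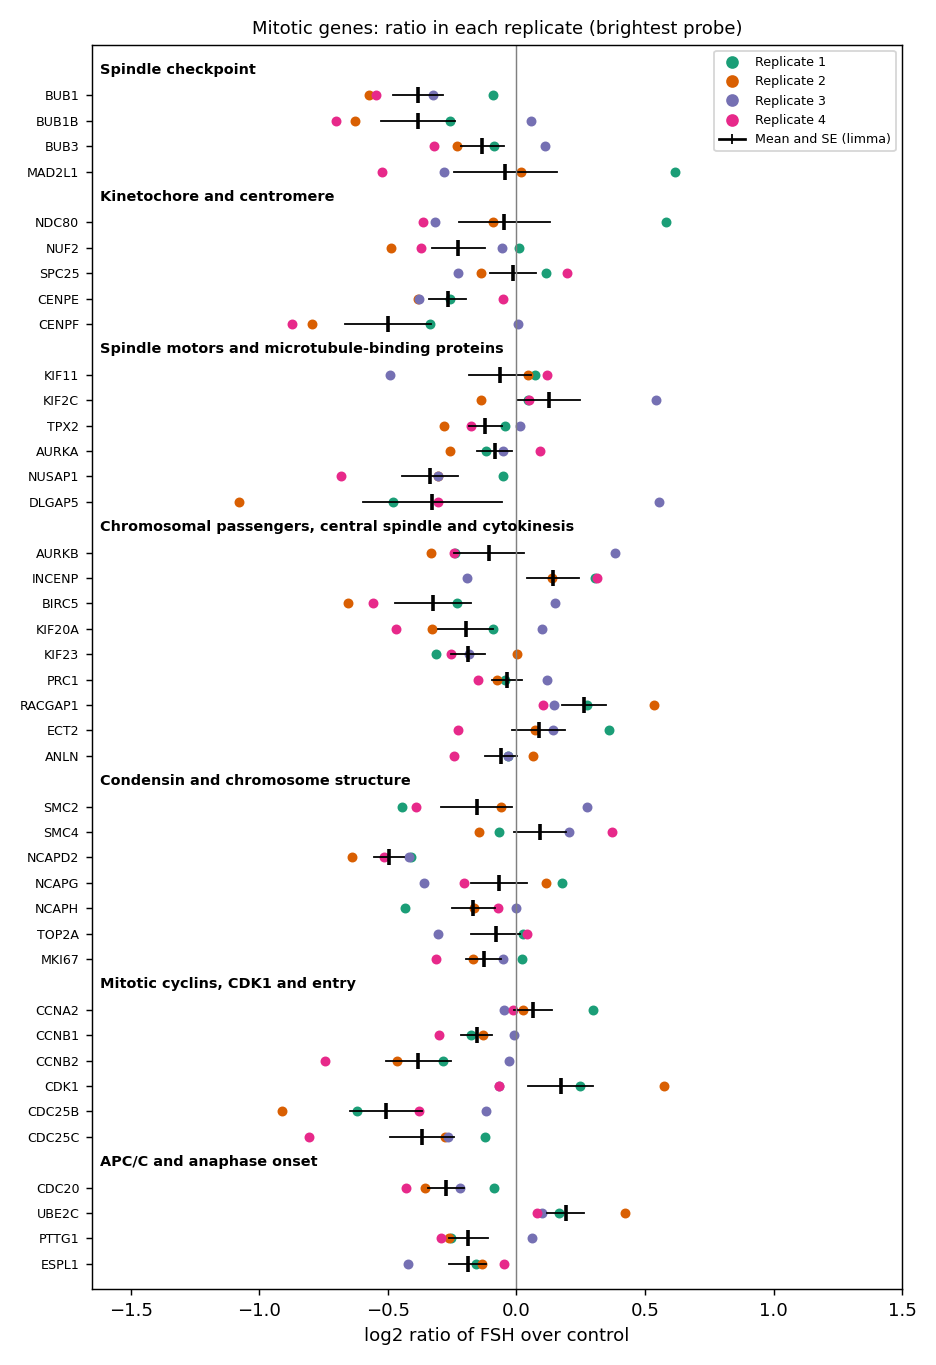
Log2 ratio of FSH over control for the brightest probe of each of 41 mitotic genes, grouped by role. Coloured points are the 4 replicates (3 for TOP2A), and the black mark and bar are the mean and its standard error from limma. Most means lie left of 0, and for DLGAP5, AURKB and PTTG1 replicate 3 lies on the other side of 0 from the other replicates.

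In the spindle checkpoint group all 4 measured members had a mean ratio below 0, with a median of -0.26 on the log2 scale and replicate medians of -0.09, -0.40, -0.11 and -0.53. BUB1 encodes a kinetochore kinase that recruits other checkpoint proteins. Its log2 levels were 13.23, 13.29, 12.86 and 13.10 in the FSH cultures of replicates 1 to 4, against 13.32, 13.86, 13.18 and 13.64 in the control cultures. The FSH culture was the lower one in every pair and on 8 of 8 arrays, although the 2 groups overlapped. That includes -0.32 in replicate 3, where the control label is in doubt. The ratio averaged -0.38 ± 0.10 (SE, n = 4), or 0.767-fold, with an adjusted p of 0.292 over replicate means and of 0.0381 in the blocked fit.

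BUB1B encodes BubR1, which binds and inhibits CDC20. It stood at 10.46, 10.70, 10.21 and 10.36 in FSH cultures, against 10.72, 11.32, 10.16 and 11.06 in control cultures. Replicate 3 was the exception to an otherwise lower level with FSH, and the mean ratio was -0.38 ± 0.14 (blocked adjusted p = 0.101). BUB3, the partner of both proteins, had a mean ratio of -0.13 ± 0.08, and its second probe agreed in sign.

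MAD2L1, the inhibitor that is transferred onto CDC20 at unattached kinetochores, had the widest pair-to-pair spread of the group, with ratios of 0.62, 0.02, -0.28 and -0.52. It averaged -0.04 ± 0.20. A second MAD2L1 probe, listed under an older symbol, gave 0.69, 0.02, -0.29 and -0.58, so both probes followed the same course over the replicates. In replicate 1 MAD2L1 stood at 12.21 with FSH, against 11.60 in the control culture, whereas BUB1 and BUB1B were below their control in that pair.

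All 5 kinetochore genes measured also had means below 0, with a median of -0.23 (-0.0115 over the arrays with FSH in Cy5 and -0.27 over those with FSH in Cy3). CENPF, a large protein of the outer kinetochore that accumulates before mitosis, had 11.51, 11.64, 10.92 and 11.19 in FSH cultures, against 11.85, 12.43, 10.91 and 12.06 in control cultures. The ratio was -0.34, -0.79 and -0.87 in replicates 1, 2 and 4, and 0.01 in replicate 3. The mean was -0.50 ± 0.17, with an adjusted p of 0.361 over replicate means and of 0.0822 in the blocked fit. The control level of CENPF spanned 1.52 log2 units over the 4 cultures.

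CENPE is the kinesin that carries chromosomes to the spindle equator. Its level was 10.30, 10.72, 10.04 and 10.57 in FSH cultures, against 10.56, 11.11, 10.42 and 10.63 in control cultures. It was lower with FSH on 8 of 8 arrays, by -0.27 ± 0.07. The dye orientations gave -0.26 with FSH in Cy5 and -0.27 with FSH in Cy3 (blocked adjusted p = 0.0655). The ratio was -0.38 in replicate 3, where the control label is in doubt.

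Of the NDC80 complex, which grips microtubules, 3 subunits were measured. NUF2 averaged -0.23 ± 0.10, NDC80 -0.05 ± 0.18 and SPC25 -0.01 ± 0.09. For NDC80 replicate 1 was at 0.58 and the other replicates were between -0.36 and -0.09, as replicate 1 also stood above the rest for MAD2L1. None of the 3 had an unadjusted p under 0.05 over replicate means.

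**Figure D2:**
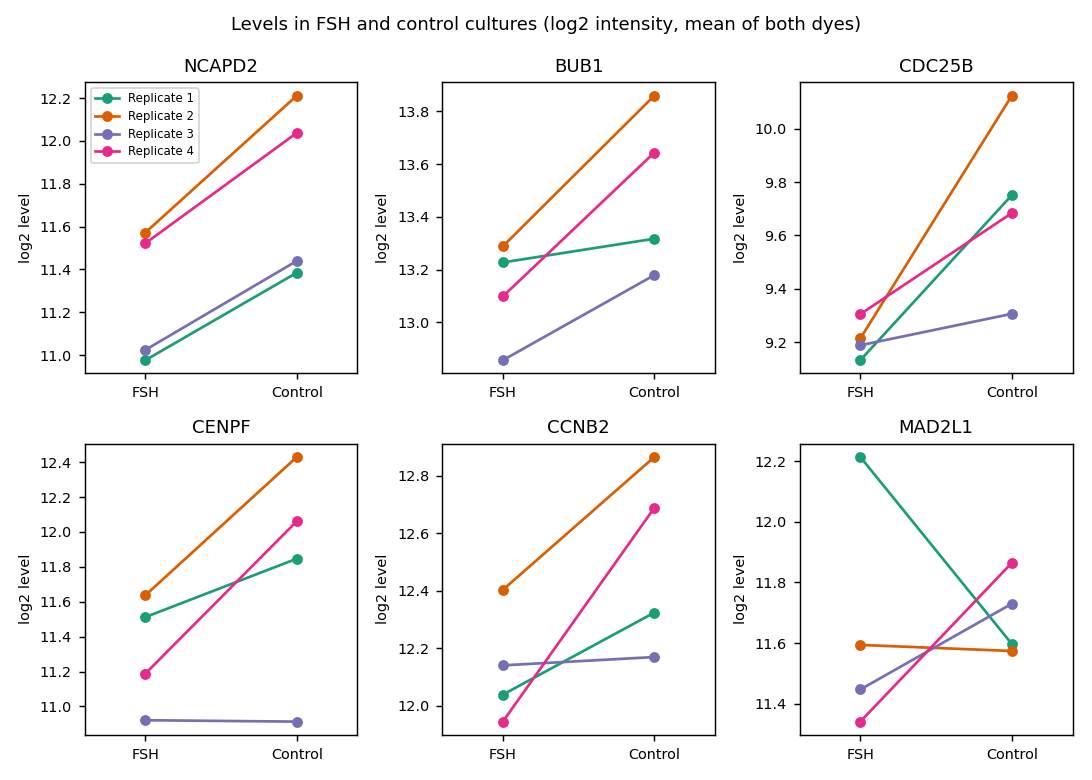
Log2 level of 6 mitotic genes in FSH (left of each panel) and control cultures (right), each point the mean of both dyes and each line 1 replicate pair. NCAPD2 and BUB1 slope the same way in all 4 pairs. CDC25B has all 4 FSH points under the control points, with the highest FSH and lowest control points almost level. CENPF and CCNB2 are almost flat in replicate 3, and MAD2L1 runs in both directions.

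Among spindle motors and microtubule-binding proteins, 5 of 6 means were below 0, with a median of -0.10. NUSAP1, which bundles spindle microtubules, stood at 12.25, 12.88, 12.48 and 12.41 in FSH cultures, against 12.30, 13.19, 12.78 and 13.10 in control cultures. The FSH level was below its control in every pair, and the mean ratio was -0.34 ± 0.11 (blocked adjusted p = 0.112). A dimmer NUSAP1 probe gave -0.00986.

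DLGAP5 encodes HURP, which stabilises kinetochore fibres. Its levels were 9.71, 9.58, 9.90 and 9.82 in FSH cultures, against 10.19, 10.66, 9.35 and 10.13 in control cultures. The FSH cultures varied little, and most of the spread lay among the controls, whose replicate 3 was the lowest. The mean of -0.33 ± 0.27 was the least precise among the 41 genes.

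The other 4 genes of this group were closer to 0. The microtubule depolymerase KIF2C averaged 0.13 ± 0.12 with 0.54 in replicate 3, and the bipolar kinesin KIF11 averaged -0.06 ± 0.12 with -0.49 in replicate 3. TPX2, the activator of Aurora A, averaged -0.12 ± 0.06. AURKA, which encodes that kinase, averaged -0.08 ± 0.07.

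The chromosomal passenger, central spindle and cytokinesis genes were mixed, with 6 of 9 means below 0 and a median of -0.06. BIRC5, or survivin, which carries the passenger complex to centromeres, stood at 10.74, 11.05, 10.43 and 10.48 in FSH cultures, against 10.98, 11.71, 10.28 and 11.04 in control cultures. Its ratio was below 0 in replicates 1, 2 and 4 and above 0 in replicate 3, with a mean of -0.32 ± 0.15, while a second BIRC5 probe gave 0.00425. Of the other passenger genes, the kinase gene AURKB averaged -0.11 ± 0.14 and the scaffold gene INCENP 0.14 ± 0.10, with opposite signs in replicate 3 (0.38 and -0.19). The INCENP probe was dim, above background in 7 of 8 FSH and 8 of 8 control channels.

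KIF23 and RACGAP1 encode the 2 subunits of centralspindlin, which bundles the central spindle, and had opposite signs. KIF23 stood at 8.57, 9.14, 8.74 and 8.79 in FSH cultures, against 8.88, 9.14, 8.93 and 9.04 in control cultures, a mean ratio of -0.19 ± 0.07. RACGAP1 stood at 9.43, 9.88, 9.71 and 9.30 in FSH cultures, against 9.16, 9.34, 9.57 and 9.20 in control cultures, a mean ratio of 0.26 ± 0.09, and a dimmer probe gave 0.03. The RACGAP1 value depended on the dye: it was -0.38 over the arrays with FSH in Cy5 and 0.91 over those with FSH in Cy3. In the 4 arrays with FSH in Cy5 alone RACGAP1 passed an adjusted p of 0.05 as lower, the opposite of its mean over both orientations.

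ECT2, the exchange factor that activates RhoA at the division plane, gave probe-dependent values. The brightest probe averaged 0.09 ± 0.10, and the others -0.16 ± 0.11 and -0.44 ± 0.06. The last of these had an unadjusted p of 0.00099 over replicate means and an adjusted p of 0.0339 in the blocked fit. No part of the ECT2 transcript can be assigned to the probes here. KIF20A, the kinesin that moves passenger proteins to the central spindle, averaged -0.20 ± 0.11. The microtubule crosslinker PRC1 averaged -0.04 ± 0.06 and anillin (ANLN) -0.06 ± 0.06, the ANLN probe being above background in 4 of 8 FSH and 6 of 8 control channels.

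The condensin and chromosome structure group had 6 of 7 means below 0 and a median of -0.13 (-0.0493 with FSH in Cy5 and -0.16 with FSH in Cy3), and contained NCAPD2, whose ratio varied little between pairs. NCAPD2, a regulatory subunit found in condensin I and not in condensin II, had log2 levels of 10.98, 11.57, 11.02 and 11.52 in FSH cultures, against 11.38, 12.21, 11.44 and 12.04 in control cultures. Every pair differed by -0.64 to -0.41, although the cultures themselves spanned 0.83 units among the controls. Replicate 3 was at -0.42, and as its control label is in doubt, that gap may not be one of FSH over control. The mean was -0.50 ± 0.06 (SE, n = 4, 95% interval -0.64 to -0.35), or 0.709-fold. Its adjusted p was 0.202 over replicate means and 0.0100 in the blocked fit, and NCAPD2 also passed an adjusted p of 0.05 in each dye orientation alone. It was at -0.53 with FSH in Cy5, where 3.19% of named genes were called lower, and at -0.46 with FSH in Cy3, where 0.258% were. Both orientations were taken to hold the same cultures, so they are not independent. Within either orientation alone, FSH and dye cannot be told apart.

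No other condensin subunit had an unadjusted p under 0.05. NCAPH, the kleisin that closes the condensin I ring, stood at 10.44, 11.23, 10.61 and 11.10 in FSH cultures, against 10.88, 11.39, 10.61 and 11.17 in control cultures. The widest gap was in replicate 1, and the mean was -0.17 ± 0.08, while a dimmer NCAPH probe gave -0.0043. NCAPG averaged -0.07 ± 0.11. SMC2 and SMC4, the ATPases shared by both condensins, averaged -0.15 ± 0.14 and 0.09 ± 0.10. The 3 tested SMC2 probes ranged from -0.16 to -0.10.

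Among chromosome structure genes, MKI67, which coats mitotic chromosomes and is used as a proliferation marker, averaged -0.13 ± 0.07. It stood between 7.39 and 7.65 in FSH cultures, against 7.50 to 7.70 in control cultures. TOP2A, the decatenating topoisomerase, averaged -0.08 ± 0.10 over 3 replicates, because a spot of replicate 2 was marked as ignored by the scanner software. Neither had an unadjusted p under 0.05. Both probes were dim, with mean log2 intensities of 7.59 for MKI67 and 7.74 for TOP2A, and dim probes have compressed ratios.

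**Figure D3:**
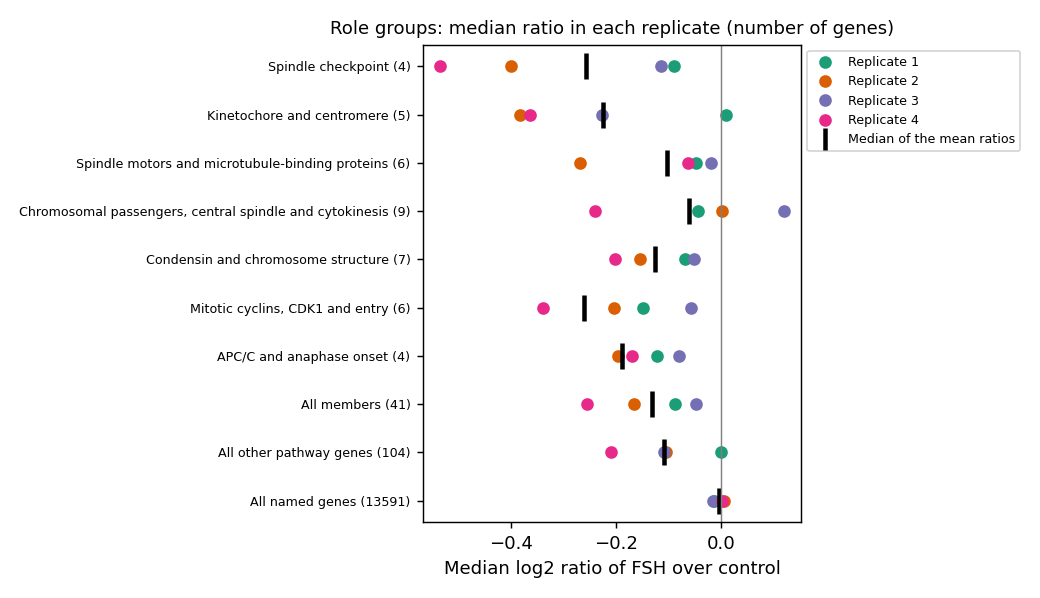
Median log2 ratio of FSH over control in each replicate (points) for the 7 role groups, all 41 mitotic genes, 104 other genes of the same processes and all 13591 named genes. The black mark is the median of the genes' mean ratios, and the number of genes is in brackets. Replicate 4 is the lowest in 4 of the 7 role groups, and the medians of all named genes lie at 0.

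The mitotic cyclin, CDK1 and entry group had a median of -0.26, with 4 of 6 means below 0. CDC25B, the phosphatase that first activates cyclin B and CDK1, stood at 9.13, 9.21, 9.19 and 9.31 in FSH cultures, against 9.75, 10.12, 9.31 and 9.68 in control cultures. By brightest probe it was the single mitotic gene of the 40 with 4 replicates whose groups did not overlap. That is 2.44% of the 41 mitotic genes, near the 1.68% of named genes with FSH below control. The margin was slight, from 9.3052 in the FSH culture of replicate 4 to 9.3065 in the control culture of replicate 3. A dimmer ECT2 probe also had every FSH level below every control level. For CDC25B the gap in replicate 3 was the smallest. The mean was -0.51 ± 0.14, or 0.704-fold, with an adjusted p of 0.307 over replicate means and of 0.0438 in the blocked fit. Both dimmer CDC25B probes gave values near 0, at -0.05 and 0.00611.

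CCNB2, a B-type cyclin, stood at 12.04, 12.40, 12.14 and 11.94 in FSH cultures, against 12.32, 12.87, 12.17 and 12.69 in control cultures. It averaged -0.38 ± 0.13, with 4 of 4 pairs below 0 and a blocked adjusted p of 0.0876. CDC25C, a related phosphatase, stood at 8.01, 8.48, 8.08 and 7.99 in FSH cultures, against 8.13, 8.76, 8.34 and 8.79 in control cultures. It was lower on 8 of 8 arrays, by -0.37 ± 0.12 (blocked adjusted p = 0.0851), and replicate 4 carried the widest gap for both genes.

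CCNB1 averaged -0.15 ± 0.06 with an unadjusted p of 0.0540, and was below 0 in all 4 pairs. CCNA2, the cyclin of S phase and early mitosis, averaged 0.07 ± 0.07. A dimmer CCNA2 probe gave -0.04 and depended on the dye, at -0.53 with FSH in Cy5 and 0.45 with FSH in Cy3. CDK1, the kinase subunit itself, averaged 0.17 ± 0.13, with 0.25 and 0.58 in replicates 1 and 2 and -0.07 in both others. CDK1 was above 0 in both dye orientations, at 0.33 with FSH in Cy5 and 0.02 with FSH in Cy3.

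The APC/C and anaphase group had a median of -0.19, with 3 of 4 means below 0. The median was -0.33 over the arrays with FSH in Cy5 and 0.0101 over those with FSH in Cy3. CDC20, the activator that the checkpoint restrains, stood at 10.16, 10.59, 10.19 and 10.62 in FSH cultures, against 10.25, 10.95, 10.41 and 11.04 in control cultures. All 4 pairs were below 0 and the mean was -0.27 ± 0.07 (blocked adjusted p = 0.0987). The orientations differed, with -0.58 where FSH was in Cy5 and 0.04 where it was in Cy3, and CDC20 passed an adjusted p of 0.05 over the arrays with FSH in Cy5 alone.

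UBE2C, the E2 enzyme that charges APC/C with ubiquitin, stood at 12.28, 13.32, 12.46 and 12.87 in FSH cultures, against 12.12, 12.90, 12.36 and 12.78 in control cultures. The mean was 0.19 ± 0.07, again with a dye dependence, at -0.07 with FSH in Cy5 and 0.45 with FSH in Cy3. PTTG1, or securin, averaged -0.19 ± 0.08 and ESPL1, the separase that securin holds back, -0.19 ± 0.07. ESPL1 was below 0 in 4 of 4 pairs and PTTG1 in replicates 1, 2 and 4.

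The mean ratio was below 0 in both dye orientations for 23 of 41 genes, against 25.5% of named genes, and above 0 in both for 3 of 40 (KIF2C, INCENP and CDK1), against 23.3%. For 14 of 40 genes the orientations differed in sign, against 51.0% of named genes. Both genes with an unadjusted p under 0.05 in the higher direction, RACGAP1 and UBE2C, were among these 14, as was CDC20 of the 11 lower ones. BUB1, CENPE, NCAPD2 and CDC25C were below 0 on all 8 arrays (9.76% of the mitotic genes, against 4.17% of named genes).

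**Figure D4:**
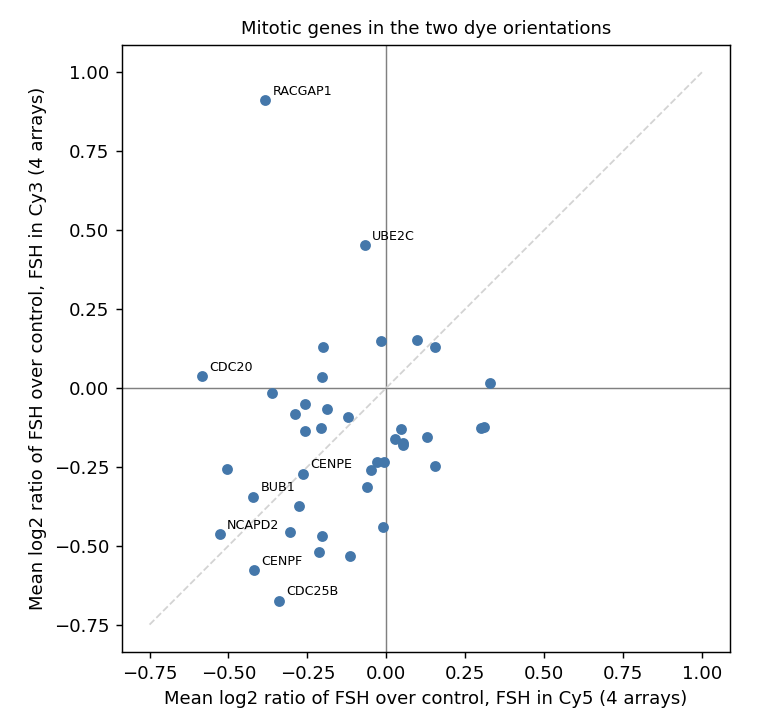
Mean log2 ratio of FSH over control over the arrays with FSH in Cy5 (horizontal) and with FSH in Cy3 (vertical) for the 40 mitotic genes with a value on all 8 arrays. Points on the dashed line have equal ratios in both orientations. NCAPD2, BUB1 and CENPE lie close to the line, and RACGAP1 lies farthest from it, at -0.38 and 0.91.

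By replicate, 26, 29, 25 and 32 mitotic genes had a ratio below 0 in replicates 1 to 4. The replicate medians were -0.09, -0.16, -0.05 and -0.26. The ratio was below 0 in replicates 1, 2 and 4 and above 0 in replicate 3 for 11 of 41 genes, against 9.31% of named genes: BUB1B, BUB3, CENPF, TPX2, DLGAP5, AURKB, BIRC5, KIF20A, PRC1, SMC2 and PTTG1. The opposite pattern held for 2 genes, KIF11 and INCENP, against 8.85%. Whatever replicate 3 showed, 22 of 41 genes were below 0 in replicates 1, 2 and 4, against 21% of named genes. Replicate 3 was above 0 for 11 of these 22, and for 1265 of the 2845 such named genes. The excess over 9.31% thus came largely from replicates 1, 2 and 4. Over replicates 1, 2 and 4 the median of the 41 genes was -0.19, and 28 genes were below 0 (68.3%, against 49.8% of named genes).

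A blocked fit without replicate 3, added after these values were seen, called 8 mitotic genes lower at an adjusted p under 0.05 and 0 higher, against 5.63% of named genes lower and 5.27% higher. These 8 were CENPF (-0.67, adjusted p = 0.0185), CDC25B (-0.64, 0.0155), DLGAP5 (-0.62, 0.0383), BUB1B (-0.53, 0.0181), NCAPD2 (-0.52, 0.00749), CCNB2 (-0.50, 0.0244), BIRC5 (-0.48, 0.0334) and PTTG1 (-0.27, 0.0432). BUB1 was then at -0.40 with an adjusted p of 0.0572. Replicate 3 was left out because NR4A1 and TRIB2 hardly differed there, which is itself an outcome. The fit is therefore a description of the other 3 pairs and no independent test.

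Mitotic genes also varied between cultures of 1 group. The control levels of a mitotic gene spanned a median of 0.693 log2 units (0.183 to 1.52 over 40 genes), against 0.441 for the 10540 named genes above background in every channel. Replicate 2 was the highest FSH culture for 28 of 40 genes and the highest control culture for 29 of 40, and replicate 3 was the lowest control for 22 genes and replicate 1 for 15. The control of replicate 2 stood a median of 0.427 above the mean of the other controls, against -0.00177 for named genes above background.

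Measured from each gene's mean over the controls, the median of the mitotic genes was -0.25, 0.08, -0.25 and -0.12 in the FSH cultures of replicates 1 to 4, against -0.14, 0.32, -0.26 and 0.11 in the control cultures. The FSH culture was the lower one in replicates 1, 2 and 4, and the 2 cultures of replicate 3 were level, both near the low end. Markers of fibroblasts and stroma also varied between cultures. Their mean log2 level over 5 genes was 11.76, 10.57, 10.84 and 10.64 in FSH cultures, against 11.38, 10.04, 10.87 and 10.66 in control cultures, lowest in replicate 2. Of these 5 markers 5 had a mean ratio above 0, with a median of 0.24, while 51.9% of named genes were below 0. By replicate, 1, 0, 3 and 2 of the 5 were below 0 in replicates 1 to 4. At an unadjusted p under 0.05, 1 (COL1A1) was higher, against 7.93% of named genes. The 9 tested oocyte markers had a median ratio of 0.01.

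Single markers of other lists also differed between cultures. The 10 granulosa markers had a median ratio of -0.12, with 6 below 0, against 51.9% of named genes. At an unadjusted p under 0.05, 1 was lower and 2 were higher. The higher ones were CYP19A1, at 0.78 ± 0.20 (unadjusted p = 0.0124, blocked adjusted p = 0.0300), and INHBA, at 0.24 ± 0.08 (unadjusted p = 0.0285). INHBA depended on the dye, at 0.58 with FSH in Cy5 and -0.09 with FSH in Cy3. The lower one was the transcription factor gene GATA4, at -0.59 ± 0.13 (unadjusted p = 0.00665, blocked adjusted p = 0.0584). The activin antagonist gene FST was at -0.76 ± 0.30, with 0.22 in replicate 3 and -1.47 to -0.55 in the other pairs. The smooth muscle actin gene ACTA2 fell in the blocked fit (-0.38 ± 0.08, adjusted p = 0.0294), 1 of 5 smooth muscle markers, whose median was -0.06. The VEGF receptor gene KDR was at 0.81 ± 0.27 (unadjusted p = 0.0316), 1 of 5 tested endothelial markers, whose median was 0.06.

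Replicate 4, which had the lowest median ratio over the mitotic genes (-0.26), stood apart for PTPRC, the pan-leukocyte gene, and DES, the muscle desmin gene. PTPRC had 7.26, 7.35, 7.58 and 10.87 in FSH cultures, against 7.28, 7.32, 7.48 and 9.52 in control cultures. DES had 6.90, 6.99, 6.98 and 9.72 in FSH cultures, against 6.88, 6.96, 6.90 and 9.16 in control cultures. Both cultures of replicate 4 were thus high for both genes. The other 4 tested immune markers had replicate 4 ratios between -0.36 and -0.01, and the list's median was 0.03. The part of any of these markers in the mitotic values was not tested.

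**Figure D5:**
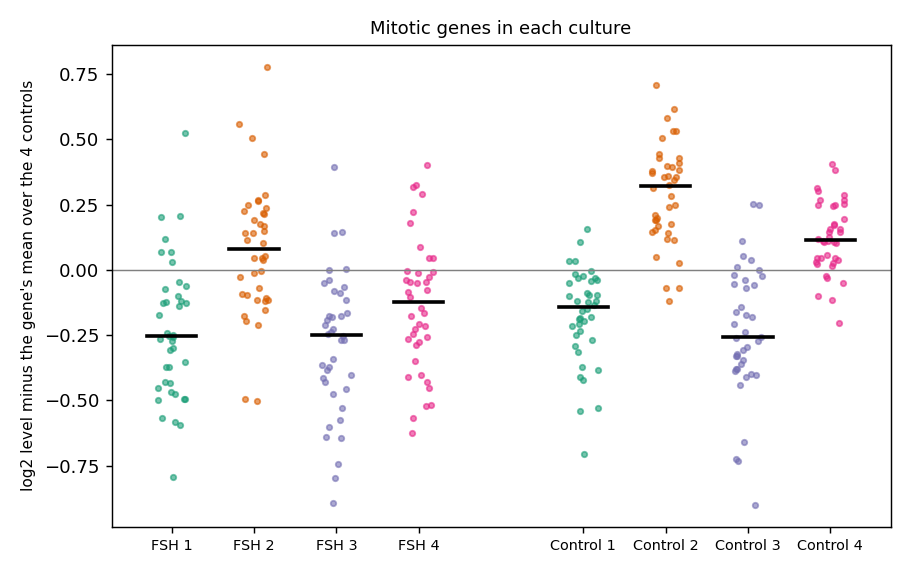
Log2 level of 40 mitotic genes in each FSH culture (left) and each control culture (right), relative to the gene's mean over the 4 controls. Points are genes and bars are medians. Replicate 2 is the highest culture of each group, and the medians of replicate 3 are level at -0.25 with FSH and -0.26 without.

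Other genes of the same processes were measured beside the 41. Of 117 listed genes 104 could be tested, with a median ratio of -0.11 and 70 means below 0 (67.3%, against 51.9% of named genes). At an unadjusted p of 0.05, 20 were lower and 2 higher with FSH, 0 passed adjustment over replicate means, and in the blocked fit 8 fell and 0 rose at an adjusted p under 0.05. By share, 19.2% were lower at the unadjusted threshold, against 8.09% of named genes, and 7.69% in the blocked fit, against 2.48%. In the higher direction, 1.92% passed the unadjusted threshold, against 7.93%, and 0 the blocked fit, against 2.74%. Bracketed values below are adjusted p from the blocked fit.

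Regulators of APC/C, entry and exit held 5 of the 8. CCNF, the cyclin-like F-box protein, was at -0.30 ± 0.05 (0.0263), the mitotic kinase PBK at -0.41 ± 0.08 (0.0266) and the APC/C subunit ANAPC7 at -0.26 ± 0.05 (0.0379). The APC/C subunits CDC16 (-0.34 ± 0.07, 0.0263) and CDC23 (-0.42 ± 0.09, 0.0409) were the others, and all 5 were below 0 on 8 of 8 arrays. The median over the 24 tested genes of this list was -0.17, with 17 below 0, against 51.9% of named genes.

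Of 23 other spindle and cytokinesis genes 16 were below 0, against 51.9% of named genes, with a median of -0.05. The kinesin KIF20B, at -0.31 ± 0.05 (0.0295), and the spindle protein FAM83D, at -0.42 ± 0.10 (0.0427), fell in the blocked fit. The chromokinesin KIF4A was at -0.38 ± 0.15 (0.108), and like CENPF it had a value near 0 in replicate 3, at 0.04, and values of -0.71 to -0.22 in the other pairs.

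Of 29 other checkpoint and kinetochore genes 19 were below 0, against 51.9% of named genes, with a median of -0.04 and 0 calls in the blocked fit. ZW10, which brings checkpoint proteins to kinetochores, was at -0.40 ± 0.11 (0.0608) and the centromere protein CENPC at -0.21 ± 0.07 (0.208). CENPM, another centromere protein, ran the other way at 0.31 ± 0.09 (0.0689), above 0 on 8 of 8 arrays.

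Condensin II and cohesin had 7 of 12 means below 0, near the share of all named genes (51.9%), and a median of -0.07. The condensin II subunit NCAPG2 was at -0.28 ± 0.06 (0.112), and the cohesin subunits SMC3 at -0.33 ± 0.08 (0.527) and RAD21 at -0.46 ± 0.18 (0.102). Among 16 transcription factors of mitotic genes the median was -0.12 with 11 below 0, against 51.9% of named genes. The repressor E2F6 fell in the blocked fit (-0.33 ± 0.08, 0.0479). The CCAAT-binding subunit NFYB was at -0.30 ± 0.10 (0.151), and LIN54, the DNA-binding subunit of the MuvB core, at 0.22 ± 0.07 (0.181).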

How the data were processed

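RNA of FSH-treated and control cultures was measured on 8 two-colour arrays after 2 rounds of T7 amplification, per the labels' protocols. The deposited scanner tables give the mean intensity of each spot at both wavelengths with its median local background, and per the file headers these columns are raw. The genome build and scanner software are not given in the sources used here. The authors' series-wide ratio table was not used. The 43794 gene probes (of 45220 spots) took symbols from the platform annotation, of which 1524 were updated through RefSeq synonyms.

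Intensities were corrected with normexp (offset 50), log2 ratios were normalised by loess within arrays (limma 3.58.1, R 4.3.3) and turned to FSH over control, and same-numbered arrays were averaged to 4 replicate means. The 231 spots marked as ignored were left out. Testing was limited to probes above the 95th percentile of 153 negative control spots in 1 or both channels of 4 or more of the 8 arrays, which kept 36528 probes and 57 of 64 probes of the mitotic genes. A two-sided lmFit and eBayes test compared each mean ratio with 0. Its p-values were adjusted by Benjamini-Hochberg across every tested probe, with 0.05 as the threshold. Levels are log2 intensities after Aquantile scaling. The steps were tested on simulated data. The planted ratios were larger than that of any mitotic gene, so the simulation does not cover ratios of the size seen here. The number of arrays limits the precision: the median standard error of a mitotic gene was 0.101.

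Same-numbered arrays correlated over probes at r = 0.357 to 0.610, and arrays of other number and opposite dye at -0.399 to 0.285, so the numbers were taken to pair the arrays. Arrays of other number and the same dye lay at 0.145 to 0.728. The blocked fit used the number as a random block (correlation 0.722) with a dye term. As nothing says which cultures were independent, the p-values cover only the spread among these samples, which may be technical.

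The mitotic genes, their role groups and all other lists were chosen with earlier results of these data known, so no list was tested as a set. All mitotic genes are named. Levels per replicate are given for those with an unadjusted p under 0.05 and the first 2 of each role group by absolute ratio, with MAD2L1 and MKI67 added after their values were seen. Of each other list the 3 genes of lowest p are named, with CDC16 and CDC23 added so that every call of that list is named. GATA4, FST, INHBA, ACTA2, KDR, PTPRC and DES were chosen after their values were seen, and so was the mean of CYP19A1 given beside them. Alternatives were the block, each dye orientation alone, no background subtraction, median centring, Aquantile scaling, other filters, the mean over probes and leaving out each replicate. Promoter motifs were not analysed here. Figures were drawn with matplotlib 3.10.9 and pandas 2.3.3 in Python 3.11.15.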

Additional observations from a re-analysis of the deposited data

Results flagged for a closer look

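Of 40 mitotic genes with a ratio in all 4 replicates, 3 had 1 replicate far from the others by Dixon's criterion at its 95% level, which chance gives for about 1 group in 20. All 3 were replicate 3. KIF11 was at -0.49 in replicate 3, while its other ratios lay between 0.04 and 0.12. AURKB was at 0.38, against -0.33 to -0.24 in the other replicates. PTTG1 was at 0.0614, against -0.29 to -0.25.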

How the results depend on the processing

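With the replicate block and a dye term, limma called 1277 probes (0 without it) and 3 mitotic genes, and this paired fit changed no other call among the mitotic genes. Over the 4 arrays with FSH in Cy5 alone, 1983 probes passed adjustment and 11099 the unadjusted threshold, 3 mitotic genes were called (NCAPD2, CDC20 and, turned to the lower direction at -0.38, RACGAP1), and the medians were -0.0115 for kinetochore, -0.0493 for condensin and -0.33 for APC/C genes. Over those with FSH in Cy3 alone, 471 and 10454 probes passed, 1 mitotic gene was called (NCAPD2), and the APC/C median was 0.0101. Without replicate 3 the blocked fit, added after seeing the data, called 2630 probes (6763 unadjusted) and 8 mitotic genes, with 20 lower at an unadjusted p under 0.05 (against 13.8% of named genes). Leaving out 1 replicate from the averaged fit gave 0 calls each time, 2793 to 5547 probes at the unadjusted threshold and 4 to 15 mitotic genes lower there (6 without replicate 1, 4 without replicate 2, 15 without replicate 3 and 8 without replicate 4, against 11 with all).

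No background subtraction, median centring, Aquantile scaling, both other filters and keeping ignored spots called 0 mitotic genes, and the median over the mitotic genes stayed between -0.15 and -0.13. Of single genes, PRC1 changed sign with median centring and ECT2 with the mean over probes. The sign changed for 10 genes with FSH in Cy5 alone and for 5 with FSH in Cy3 alone. It changed for 2, 1, 7 and 4 genes without replicates 1, 2, 3 and 4. The cause was not tested. Without a filter FOXM1 is included (42 genes), and with the stricter one 38 genes remain. Dim probes have compressed ratios, and 4 pairs of cultures give a median standard error of 0.101, close to the size of the median ratio.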
